A study of Mus musculus with 8 samples.

Results

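The cytochrome P450 enzymes of families 1 to 3, which oxidise drugs, pollutants, steroids and fatty acids, were followed through liver regeneration in mouse liver with and without Survivin (Birc5). Members were all genes whose mouse symbol begins with Cyp1, Cyp2 or Cyp3 and a subfamily letter. Of 87 such symbols in the RefSeq table, 49 had a probe on the array and 46 were well above background on at least 2 arrays, out of 14137 genes tested in all. Cyp2ab1, Cyp2b23 and Cyp2c65 had a probe but were above background on 0 arrays. The other 38 symbols had no probe named through RefSeq and were not analysed here. The 46 members fell into 15 subfamilies, the largest being Cyp2c with 10 genes on chromosome 19, Cyp2d with 7 on chromosome 15, Cyp3a with 6 on chromosome 5, Cyp2j with 5 on chromosome 4, and Cyp2a and Cyp2b with 4 each on chromosome 7.

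Total RNA of whole liver was hybridised to 8 single-colour Agilent arrays, 1 for each genotype at 0, 24, 36 and 48 h after partial hepatectomy, the removal of part of the liver. The 4 Mxcre-negative livers were the wild type and the 4 Mxcre-positive livers the Survivin-deleted group. Mxcre is a Cre recombinase under an interferon-responsive promoter that acts in blood cells as well as hepatocytes. All 8 groups, controls included, were of the strain 129/SV/B6, had received poly(IC), the inducer of Mxcre, 1 week earlier, and had been irradiated and transplanted with bone marrow 2 months earlier. The labels give sex only as male or female for every sample, and they do not state the age, the donor of the marrow or the floxed allele, nor whether an array held 1 animal or a pool. No group had a replicate, so differences within 1 time or 1 genotype have no test. Fitted differences are given with the standard error (SE) of a limma model over all 8 arrays and were called at an adjusted p of 0.05. Such a p reflects the steadiness of a change across genotypes or times, with no replicate animals behind it.

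P450 enzymes sit in the endoplasmic reticulum of hepatocytes, bind haem and take electrons from cytochrome P450 reductase. Nuclear sensors set many of their levels: the aryl hydrocarbon receptor drives the Cyp1 genes, the constitutive androstane receptor drives Cyp2b and some Cyp2c genes, and the pregnane X receptor drives Cyp3a genes. In mouse liver several members are zoned around the central vein, and others differ between the sexes under the pattern of growth hormone secretion.

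Array quality was alike: 60.2% to 66.0% of the 43379 spots of an array were well above background and 0 were saturated. Birc5 itself was lower in the Mxcre-positive array of every time, with -0.25, -0.55, 1.53 and 5.03 in Mxcre-negative and -2.80, -3.49, -1.58 and -1.20 in Mxcre-positive liver at 0, 24, 36 and 48 h. Here and below, levels are log2 intensity relative to the array's 75th percentile, listed in that order of times, and a level of 1 probe cannot be set against that of another. All 9 measured hepatocyte markers were above background on all 8 arrays, with a summed linear level of 3480 to 4320 times the 75th percentile. The 4 Y-linked genes read (Ddx3y, Eif2s3y, Kdm5d, Uty) split the arrays against the design. Ddx3y read -6.44, 1.63, 0.56 and 1.72 in Mxcre-negative liver and -6.67, 1.20, -6.57 and -6.87 in Mxcre-positive liver, so that Y-linked signal was missing from the 0 h pair, present in the 24 h pair, and later present in Mxcre-negative liver alone. Xist, the RNA of the inactive X chromosome, was above background on all arrays, from 2.32 to 5.49. It read 5.46, 3.48, 4.37 and 2.32 in Mxcre-negative and 5.49, 4.20, 5.18 and 5.10 in Mxcre-positive liver. The arrays with Y-linked signal thus had less Xist than the others but held both signals, in differing amounts. Arrays of 0 and 24 h shared 1 slide and arrays of 36 and 48 h the other.

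After hepatectomy more P450 members were called lower than higher at each time. The largest positive fitted changes were those of Cyp2b9, Cyp2b13 and Cyp2b10, which did not pass the test. The fitted change was negative for 37 of 46 members at 24 h, 37 at 36 h and 39 at 48 h, and 34 members were negative at all 3 times. The median change over the members was -0.56, -0.51 and -0.89 (log2) at 24, 36 and 48 h, against -0.03, -0.06 and -0.08 over all genes tested. At 24 h, 9 members passed the test as lower and 1 as higher, beside 5.31% and 4.49% of all genes, so that 21.7% of members and 9.8% of all genes were called. At 36 h, 11 were called lower and 1 higher (8.74% and 7.94% of all genes), or 26.1% of members and 16.7% of all genes. At 48 h, 19 were called lower and 0 higher (9.64% and 8.14% of all genes), or 41.3% of members and 17.8% of all genes. These shares of all genes at each time also apply to the counts of listed genes called lower or higher below. In bulk tissue, fewer cells of a type and less RNA per cell cannot be told apart.

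Of the 22 members called at 1 or more times, 6 were called lower at all 3: Cyp2c37, Cyp2c54, Cyp2c70, Cyp2d13, Cyp2d10 and Cyp3a41a. Cyp2d13 is a transcribed pseudogene, and Cyp2d10 and Cyp2d22 below are named after their values were seen. Cyp2a4, Cyp2a5, Cyp2c39, Cyp2d22, Cyp2e1 and Cyp2j13 were called at 48 h alone, with no test of whether their change differed from that at the earlier times. For 15 of the 19 members called lower at 48 h, the fitted fall at 36 h was smaller than at both 24 and 48 h. The same count over all genes was not made, so it is not shown to be particular to the members. Some of these gaps were slight, as for Cyp1a2 with -1.68 at 24 h and -1.67 at 36 h. The 24 and 36 h arrays also lie on different slides. The direct comparison of 48 with 36 h, which lie on the same slide, was negative for 39 of 46 members with a median of -0.33, beside -0.02 for all genes. It called 0 members by limma in either direction, against 0.106% of all genes (0.00707% lower, 0.099% higher), and 14 members had an unadjusted p under 0.05, beside 1273 of all 14137 genes.

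**Figure D1:**
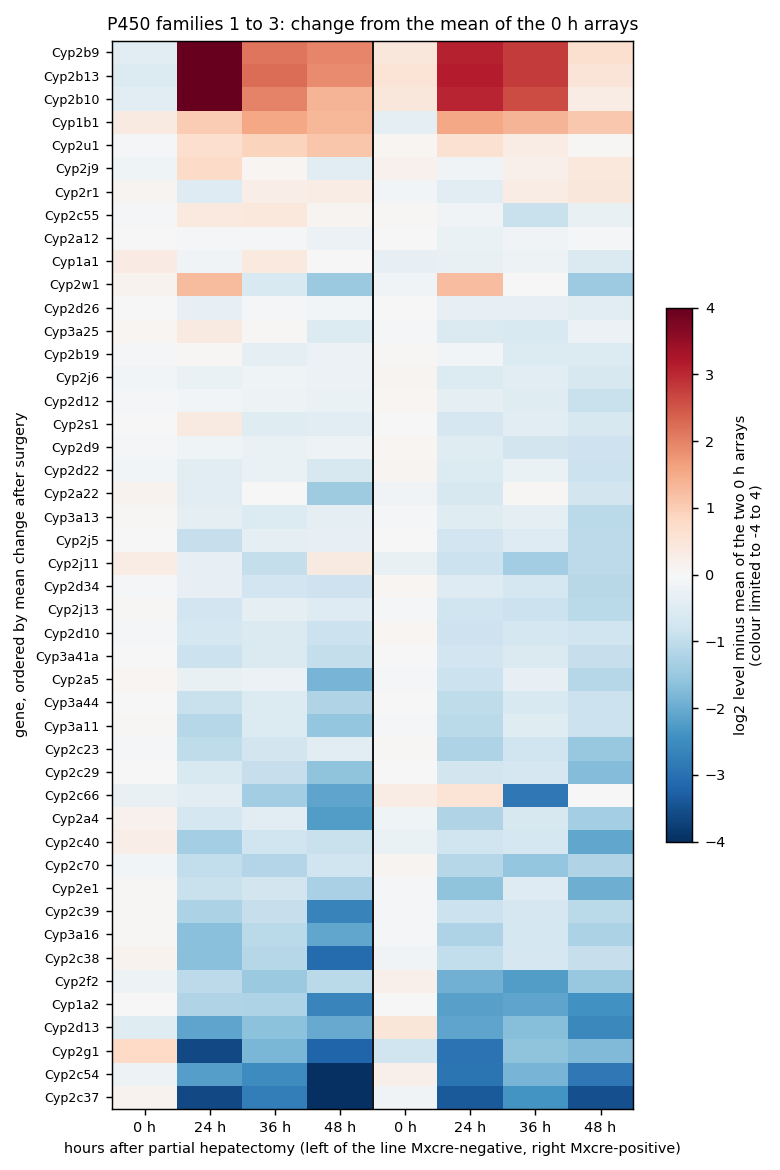
Change of each of the 46 P450 genes from the mean of both 0 h arrays, as log2 difference by colour (blue lower, red higher, limited to -4 and 4), with 1 column per array and genes ordered by their mean change after surgery. Cyp2b9, Cyp2b13 and Cyp2b10 lead the top of the plot, and Cyp2c37 and Cyp2c54 end it.

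Pairs of arrays were also compared 1 against 1, with the 36 and 48 h arrays on another slide than those of 0 h. Falls were present in the pairs alike in Y-linked signal, more of them at 48 h than at 36 h. Whether such arrays were alike in other ways cannot be told from that signal. In Mxcre-positive liver, where the 0, 36 and 48 h arrays all lacked it, 18 of 43 members above background on both arrays were at least 2-fold lower at 48 h than at 0 h and 0 were higher, beside 8.09% and 7.8% of all genes. In Mxcre-negative liver, whose 48 h array had the signal, 16 of 42 were lower and 3 higher (7.56% and 6.54% of all genes). At 36 h, 7 of 44 were lower and 3 higher in Mxcre-positive liver (7.88% and 7.89% of all genes), and 12 of 44 lower and 2 higher in Mxcre-negative liver (7.45% and 5.29%). At 24 h both arrays had the signal and both 0 h arrays did not. There, 12 of 44 were lower and 4 higher in Mxcre-positive liver (5.9% and 6.09%). In Mxcre-negative liver 10 of 44 were lower and 3 higher (6.4% and 5.02%). The change from 0 to 24 h and the Y-linked signal therefore cannot be told apart, here or in any fitted 24 h change of this report. With the mean of the Y-linked genes as a covariate the model called 0, 3 and 8 members for 24, 36 and 48 h, each of them lower. Calls also depended on the background: with normexp correction and the 75th percentile 0, 0 and 1 members were called, and with normexp followed by quantile normalisation 16, 10 and 17, all lower. Fitted on its own slide, the 24 h comparison called 0 members, the smallest adjusted p being 0.0835.

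The 7 measured P450 genes of the pericentral zone were called lower at 48 h. Of these, 3 were called lower at 24 h, 4 at 36 h and 7 at 48 h, beside 5.31%, 8.74% and 9.64% of all genes. Their medians were -1.26, -0.80 and -1.67. Cyp2c37, an arachidonic acid epoxygenase induced through the constitutive androstane receptor, read 6.77, 3.02, 3.87 and 1.45 in Mxcre-negative liver and 6.51, 3.27, 4.24 and 3.11 in Mxcre-positive liver. Every array after surgery was below both 0 h arrays, and the 36 h arrays were above those of 24 and 48 h. The fall was 11.3-fold at 24 h (-3.49 ± 0.47 log2, SE, adjusted p = 0.0256) and 20.5-fold at 48 h (-4.36 ± 0.47, adjusted p = 0.0125, limma). A second probe of the gene followed the first with a correlation of 0.98 over the 8 arrays. Cyp2c54, its neighbour in the Cyp2c cluster, read 2.61, 0.63, 0.30 and -1.36 in Mxcre-negative and 3.04, -0.10, 0.97 and -0.04 in Mxcre-positive liver, a fall of 11.5-fold at 48 h (-3.53 ± 0.49 log2, limma adjusted p = 0.0176). For both genes the 0 h arrays lay above all later arrays. Both were among the members with the largest called falls, and the share of all genes that part in this way was not counted.

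Cyp1a2, the main caffeine and arylamine oxidase of liver, read 4.43, 3.23, 3.2 and 1.79 in Mxcre-negative liver and 4.42, 2.25, 2.31 and 2.00 in Mxcre-positive liver. Both genotypes ended 48 h near the same level, while at 24 and 36 h the Mxcre-positive arrays were lower by 0.98 and 0.89. Its change of -1.68 ± 0.35 at 24 h missed the threshold (adjusted p = 0.0523), and it passed at 36 h (-1.67 ± 0.35, adjusted p = 0.0424) and 48 h (-2.53 ± 0.35, adjusted p = 0.018; limma). Cyp2c29, another target of the constitutive androstane receptor, differed by at most 0.26 between genotypes at any time, at 7.17, 6.54, 6.23 and 5.54 in Mxcre-negative and 7.15, 6.44, 6.49 and 5.44 in Mxcre-positive liver. It had the smallest p of all members at 48 h, with a 3.19-fold fall (-1.67 ± 0.14, limma adjusted p = 0.00877).

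Cyp2e1, which oxidises ethanol and acetaminophen, read 7.52, 6.58, 6.73 and 6.17 in Mxcre-negative liver and 7.41, 5.84, 6.95 and 5.50 in Mxcre-positive liver. Its 36 h arrays lay between the 0 h arrays and the rest, and the fall passed the test at 48 h (-1.63 ± 0.28, limma adjusted p = 0.0252). Cyp2a5, the coumarin 7-hydroxylase, read 8.66, 8.27, 8.33 and 6.71 in Mxcre-negative and 8.48, 7.71, 8.24 and 7.43 in Mxcre-positive liver, and was lower at 48 h by 1.50 ± 0.32 on the log2 scale (limma adjusted p = 0.0396). Cyp3a11, the chief pregnane X receptor target, read 6.60, 5.41, 6.02 and 5.02 in Mxcre-negative liver and 6.53, 5.48, 6.07 and 5.70 in Mxcre-positive liver. The genotypes ran within 0.07 of each other until 36 h and parted at 48 h. Its change was -1.12 ± 0.22 at 24 h (adjusted p = 0.0448), -0.52 ± 0.22 at 36 h (adjusted p = 0.153) and -1.21 ± 0.22 at 48 h (adjusted p = 0.0289; limma).

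**Figure D2:**
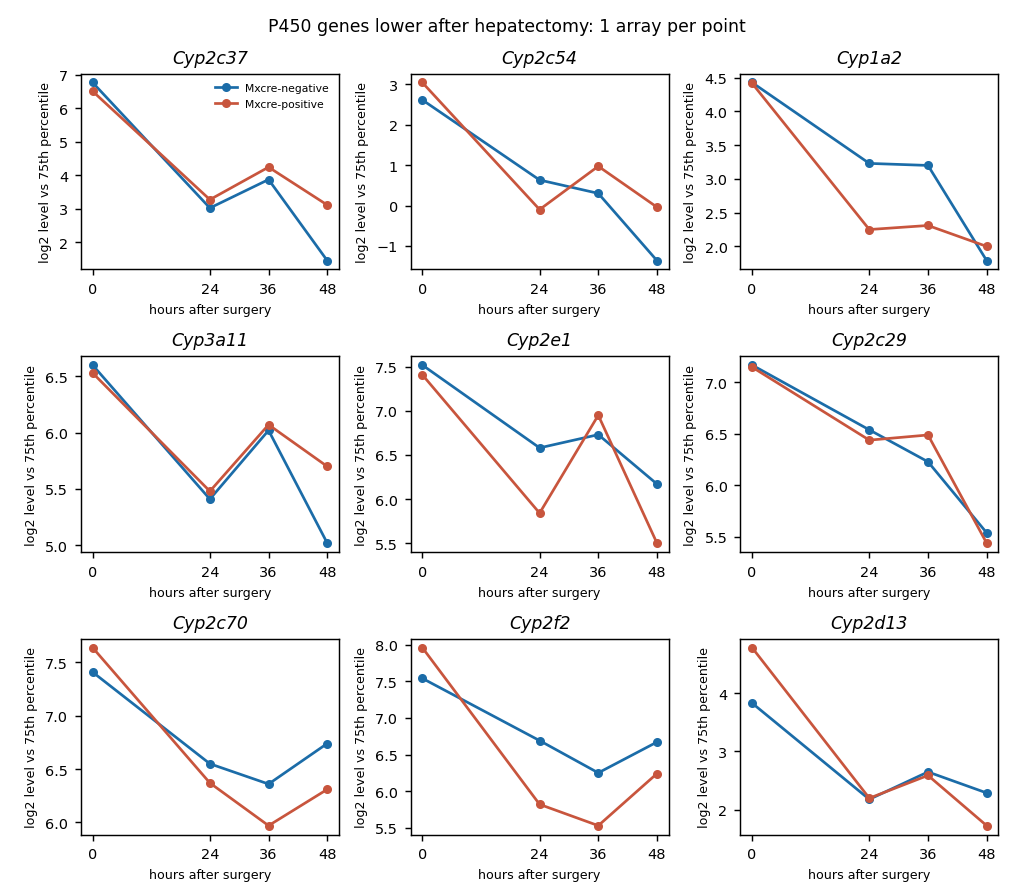
Log2 level relative to the array's 75th percentile against hours after hepatectomy for 9 P450 genes, 1 array per point, blue for Mxcre-negative and red for Mxcre-positive liver, with a separate vertical scale in each panel. The genes were picked among those lower after surgery, and all points after 0 h lie below both 0 h points in each panel. Cyp2c70 and Cyp2f2 are lower at 36 h than at 48 h in both genotypes, and the other genes shown are higher.

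The periportal member moved as well. Cyp2f2, which activates naphthalene and marks hepatocytes near the portal vein, read 7.54, 6.69, 6.25 and 6.67 in Mxcre-negative liver and 7.96, 5.82, 5.53 and 6.24 in Mxcre-positive liver. It fell by 1.86 ± 0.34 at 36 h (limma adjusted p = 0.0328), was at -1.5 ± 0.34 at 24 h (adjusted p = 0.0581) and -1.30 ± 0.34 at 48 h (adjusted p = 0.0599). Zone markers outside the P450 families were mixed: of 7 periportal genes 3, 3 and 4 were called lower and 0 higher at 24, 36 and 48 h, and of 8 pericentral genes 0, 1 and 1 were lower and 0, 0 and 1 higher. Their medians were -0.92, -0.72 and -0.86 for the periportal and -0.19, -0.48 and -0.61 for the pericentral genes.

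The other genes driven by the aryl hydrocarbon receptor were dim. Cyp1a1, the classical dioxin-induced enzyme, read -3.78, -4.24, -3.73 and -4.08 in Mxcre-negative and -4.43, -4.39, -4.32 and -4.69 in Mxcre-positive liver, where the 24 and 48 h arrays were not well above background. Cyp1b1, which hydroxylates oestradiol and is made mostly by cells other than hepatocytes, was not well above background at 0 h (-4.08 and -4.80) and read -3.41, -2.90 and -3.1 afterwards in Mxcre-negative and -2.89, -3.07 and -3.35 in Mxcre-positive liver. It was the 1 member called higher at 36 h, by at least 2.6-fold against the background level of the 0 h arrays (fitted change 1.46 ± 0.30, limma adjusted p = 0.0411), a change that turned to -0.58 with normexp background and shrank to 0.20 with normexp and quantile normalisation. Stellate and fibroblast markers had 1, 3 and 2 of 8 called higher at 24, 36 and 48 h, with summed linear levels of 15.9 to 18.2 at 0 h and 21.7 to 32.8 later and all 8 above background, and their part in the Cyp1b1 value was not tested. Cyp2w1, a fetal and tumour-associated P450, was the member called higher at 24 h. It read -3.49, -2.36, -4.24 and -5.09 in Mxcre-negative and -3.75, -2.40, -3.61 and -5.07 in Mxcre-positive liver, so both 24 h arrays were the highest and both 48 h arrays were below background. The 24 h change was 1.24 ± 0.24 (limma adjusted p = 0.0436), or -0.10 with normexp background, and by 48 h the gene was at least 2.06-fold lower than at 0 h (limma adjusted p = 0.0233).

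Cyp2b9, Cyp2b13 and Cyp2b10 had the largest positive changes of all members, highest at 24 h in Mxcre-negative liver. Cyp2b9, a female-biased steroid hydroxylase, read -2.15, 4.17, 0.46 and 0.25 in Mxcre-negative liver and -1.24, 1.38, 1.11 and -1.05 in Mxcre-positive liver. Between 0 and 24 h it was therefore higher by 6.31 (log2) in Mxcre-negative and by 2.62 in Mxcre-positive liver, and at 48 h the Mxcre-positive array was 0.19 above its 0 h level. Cyp2b13, also female-biased, read -3.48, 2.80, -0.70 and -1.04 in Mxcre-negative and -2.40, 0.21, -0.14 and -2.43 in Mxcre-positive liver. Cyp2b10, the phenobarbital-induced target of the constitutive androstane receptor, read -4.62 (not well above background), 1.37, -2.19 and -2.83 in Mxcre-negative and -3.73, -1.14, -1.58 and -3.89 in Mxcre-positive liver.

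The fitted 24 h changes of these genes did not pass the test: 4.47 ± 0.97 for Cyp2b9 (adjusted p = 0.0553), 4.45 ± 0.95 for Cyp2b13 (adjusted p = 0.0545) and 4.29 ± 0.88 for Cyp2b10 (adjusted p = 0.0503). Cyp2b10 passed with quantile normalisation (adjusted p = 0.0477), Cyp2b9 and Cyp2b13 with genes above background on all arrays (adjusted p = 0.0318 and 0.0311), and all 3 with an intensity trend (adjusted p of 0.0273 to 0.0298). With normexp background the changes of Cyp2b10, Cyp2b13 and Cyp2b9 were smaller, at 1.09, 1.92 and 2.77 (limma adjusted p = 0.81, 0.394 and 0.267), and with normexp and quantile normalisation they were 1.52, 2.34 and 3.12 (0.082, 0.068 and 0.0539). Within the slide of 0 and 24 h the adjusted p was 0.129 to 0.133, and with the Y-linked covariate 0.244 to 0.271. With quantile normalisation 3 members were called higher at 24 h and 6 lower, beside 1 and 9 in the main fit. At 36 h the changes were 2.48 ± 0.97, 2.52 ± 0.95 and 2.29 ± 0.88, with adjusted p of 0.135, 0.128 and 0.132, and that of Cyp2b10 turned to -0.25 with normexp background. The 24 h arrays of both genotypes had Y-linked signal. Within Mxcre-positive liver, where the 0 and 36 h arrays both lacked it, Cyp2b9 was 2.35 higher at 36 h than at 0 h. That is 1 array against 1 on different slides.

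Over the 8 arrays the level of Cyp2b13 had a correlation of 0.999 with that of Cyp2b9, and Cyp2b10 one of 0.995, while the next member, Cyp2u1, had 0.571 and Cyp2g1 had -0.809. All of these genes are read from the same 8 arrays. Cyp2b9 and Cyp2b13 have near-identical promoters, and whether their probes read each other's RNA was not tested. These correlations are therefore a description. A dimmer second probe of Cyp2b9 followed the first (0.99), whereas that of Cyp2b13, above background on 4 arrays, did not (0.21). Cyp2b19, a skin enzyme named after its values were seen, kept between -2.92 and -2.32 on all 8 arrays. The promoters of the 3 genes that moved together are shown because their sequences bear on how alike they are: the 250 bases before the RefSeq start of Cyp2b9 at chr7:26173159-26173408, Cyp2b13 at chr7:26061245-26061494 and Cyp2b10 at chr7:25897408-25897657, all on the plus strand of GRCm38.p6, 5′ to 3′. Capitals mark the nuclear receptor hexamer AGGTCA, the C/EBP core TTGCNNAA and the aryl hydrocarbon response core GCGTG, each searched on both strands.
Cyp2b9: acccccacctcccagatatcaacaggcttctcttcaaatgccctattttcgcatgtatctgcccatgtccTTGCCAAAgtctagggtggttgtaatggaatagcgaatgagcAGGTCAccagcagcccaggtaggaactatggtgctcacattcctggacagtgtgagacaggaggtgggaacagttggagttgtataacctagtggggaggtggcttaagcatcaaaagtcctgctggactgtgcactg
Cyp2b13: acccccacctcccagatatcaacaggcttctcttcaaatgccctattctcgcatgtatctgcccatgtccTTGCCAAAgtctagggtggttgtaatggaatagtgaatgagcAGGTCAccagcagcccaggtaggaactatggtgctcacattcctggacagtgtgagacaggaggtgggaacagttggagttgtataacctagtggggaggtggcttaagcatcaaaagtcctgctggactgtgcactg
Cyp2b10: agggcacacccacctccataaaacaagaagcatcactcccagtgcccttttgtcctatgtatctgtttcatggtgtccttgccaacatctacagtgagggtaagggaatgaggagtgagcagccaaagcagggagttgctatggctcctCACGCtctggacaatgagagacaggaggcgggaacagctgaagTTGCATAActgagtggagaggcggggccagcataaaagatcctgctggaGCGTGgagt
Cyp2b9 and Cyp2b13 were identical at 248 of 250 positions (99.2%), and Cyp2b9 and Cyp2b10 at 71.0% of an alignment with gaps. Both near-identical promoters held 1 hexamer and 1 C/EBP core, and that of Cyp2b10 held a C/EBP core and a response core on each strand, without the hexamer in this window.

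**Figure D3:**
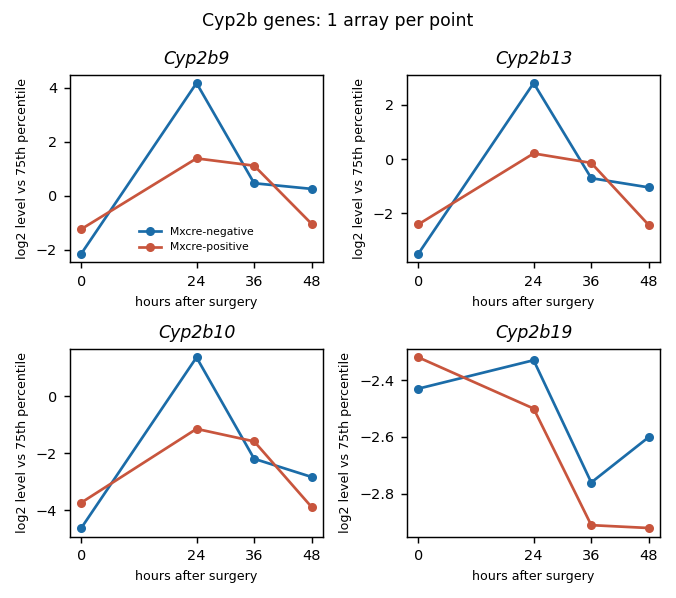
Log2 level relative to the array's 75th percentile against hours after hepatectomy for the 4 Cyp2b genes, 1 array per point, blue for Mxcre-negative and red for Mxcre-positive liver, with a separate vertical scale in each panel. Cyp2b9, Cyp2b13 and Cyp2b10 peak at 24 h in both genotypes, higher in Mxcre-negative liver, and Cyp2b19 stays between -2.92 and -2.32.

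Of 9 measured female-biased P450 genes, 3 were called lower at 24 h, 1 at 36 h and 5 at 48 h, and 0 higher. Of all genes, 5.31%, 8.74% and 9.64% were called lower. Cyp2a4, a testosterone 15-alpha-hydroxylase, read 9.09, 8.20, 8.49 and 6.67 in Mxcre-negative and 8.72, 7.70, 8.28 and 7.55 in Mxcre-positive liver, a fall of 1.79 ± 0.36 at 48 h (limma adjusted p = 0.0362). Cyp2c39, a retinoic acid hydroxylase, read 5.83, 4.53, 4.86 and 3.11 in Mxcre-negative and 5.74, 4.91, 5.11 and 4.71 in Mxcre-positive liver (48 h change -1.87 ± 0.42, limma adjusted p = 0.0448). For both, the 48 h Mxcre-negative array was the lowest of the 8. That array also had the lowest Xist (2.32) and the highest mean of the Y-linked genes (-0.76). Both 0 h arrays lacked Y-linked signal, so falls of sex-biased genes from 0 h to an array with that signal cannot be told apart from it. Cyp2c40, which makes 16-HETE from arachidonic acid, went the other way at that time, at 7.38, 5.78, 6.34 and 6.23 in Mxcre-negative and 6.87, 6.33, 6.42 and 5.06 in Mxcre-positive liver, and was not called.

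Cyp2g1, an olfactory and steroid-metabolising enzyme, read 2.64, -1.76, 0.00 and -1.36 in Mxcre-negative liver and 1.03, -1.12, 0.21 and 0.06 in Mxcre-positive liver. It was higher at 0 h than later in both genotypes, and its changes of -3.27 ± 0.72, -1.73 ± 0.72 and -2.48 ± 0.72 at 24, 36 and 48 h did not pass (limma adjusted p = 0.0557, 0.152 and 0.0756). The mean log2 level of the 9 genes was 4.77, 4.87, 4.53 and 3.68 in Mxcre-negative and 4.68, 4.44, 4.73 and 3.82 in Mxcre-positive liver, lowest at 48 h in both. This mean joins 7 genes with a negative change at 24 h to Cyp2b9 and Cyp2b13, which had large positive ones. Its course therefore stands for neither set. Genes outside the family with the course most similar to this mixed mean over the 8 arrays were Mat1a, Axin1, Slc25a25, Ppp6r1 and 1700019N19Rik, with correlations of 0.941 to 0.951. Among sex-biased liver genes outside these families, 4, 1 and 3 of 6 female-biased genes were called lower at 24, 36 and 48 h (medians -2.36, -1.61 and -2.12), and 0 of 6 male-biased genes were called at any time. The male-biased genes had a mean log2 level of 0.28, 3.39, 2.33 and 3.24 in Mxcre-negative and 1.09, 1.59, 0.52 and -0.66 in Mxcre-positive liver.

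The Cyp3a genes, whose enzymes hydroxylate steroids and many drugs, had 6 negative fitted changes of 6 at each time. Of them, 4 were called lower at 24 h, 1 at 36 h and 4 at 48 h, beside 5.31%, 8.74% and 9.64% of all genes. Cyp3a16, a fetal form kept in females, read 7.20, 5.48, 6.08 and 5.07 in Mxcre-negative and 7.10, 5.93, 6.44 and 5.89 in Mxcre-positive liver, with falls of 1.45 ± 0.24 at 24 h (adjusted p = 0.0339) and 1.67 ± 0.24 at 48 h (adjusted p = 0.0187, limma). Cyp3a41a, female-specific in adult mice, read 9.50, 8.63, 8.91 and 8.52 in Mxcre-negative and 9.46, 8.70, 8.89 and 8.55 in Mxcre-positive liver. The genotypes differed by at most 0.07 in Cyp3a41a at any time, and it fell by 0.82 ± 0.11, 0.58 ± 0.11 and 0.95 ± 0.11 at 24, 36 and 48 h (limma adjusted p = 0.0262, 0.0364 and 0.014). Cyp3a25 read 5.70, 5.96, 5.66 and 5.06 in Mxcre-negative and 5.53, 5.05, 4.99 and 5.37 in Mxcre-positive liver, where the Mxcre-negative array of 24 h was the highest of the 8, and was not called. Cyp3a13, expressed in gut and liver, read 5.77, 5.36, 5.17 and 5.32 in Mxcre-negative and 5.68, 5.24, 5.38 and 4.64 in Mxcre-positive liver and was not called.

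Cyp3a44, another female-specific gene, had 2 probes that disagreed. The brighter probe, which was used in the tests, read 6.90, 6.0, 6.34 and 5.68 in Mxcre-negative and 6.87, 5.88, 6.27 and 6.03 in Mxcre-positive liver, falls of 0.95 ± 0.16 at 24 h and 1.03 ± 0.16 at 48 h (limma adjusted p = 0.0351 and 0.0216). The dimmer probe read 5.09, -0.18, 1.11 and -0.92 in Mxcre-negative and 3.72, 2.82, 3.86 and 3.16 in Mxcre-positive liver. On that probe the 3 later Mxcre-negative arrays were at 1.11 or lower and the 5 others at 2.82 or more. Of the 4 arrays with Y-linked signal, 3 were those arrays, and the other, Mxcre-positive at 24 h, had the lowest value of the rest. Both probes name the same gene, and whether either also reads transcripts of copies such as Cyp3a41 and Cyp3a16 was not tested. Promoters of the 250 bases before the start are shown for Cyp3a11 (chr5:145879855-145880104), Cyp3a16 (chr5:145469724-145469973) and Cyp3a41a (chr5:145720137-145720386), minus strand of GRCm38.p6 from RefSeq. They were picked by hand among the Cyp3a genes and share the sequence CAAAGTCCA, which few other promoters hold. The promoter of Cyp3a44, also called lower, lacked it, and that of Cyp2c40, which was not called, held it. Whether the sequence bears on the levels was not tested. Capitals mark CAAAGTCCA, a binding sequence of the hepatocyte factor HNF4A, the TATA box TATAAA, and the hexamers AGGTCA and AGTTCA, on either strand.
Cyp3a11: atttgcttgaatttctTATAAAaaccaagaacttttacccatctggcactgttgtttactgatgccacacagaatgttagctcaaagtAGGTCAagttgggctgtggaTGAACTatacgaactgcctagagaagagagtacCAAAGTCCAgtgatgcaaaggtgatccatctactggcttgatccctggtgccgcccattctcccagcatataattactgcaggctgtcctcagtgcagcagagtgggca
Cyp3a16: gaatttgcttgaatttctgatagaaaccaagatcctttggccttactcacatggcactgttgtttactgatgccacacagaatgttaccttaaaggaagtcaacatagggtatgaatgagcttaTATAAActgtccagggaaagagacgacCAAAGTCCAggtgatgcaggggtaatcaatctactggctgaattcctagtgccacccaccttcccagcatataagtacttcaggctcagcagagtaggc
Cyp3a41a: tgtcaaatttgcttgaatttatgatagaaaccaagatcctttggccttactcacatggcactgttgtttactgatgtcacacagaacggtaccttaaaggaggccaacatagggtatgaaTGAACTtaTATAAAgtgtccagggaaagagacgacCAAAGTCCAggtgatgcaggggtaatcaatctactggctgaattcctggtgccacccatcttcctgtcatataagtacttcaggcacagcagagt
Cyp3a16 and Cyp3a41a were identical at 91.3% of an alignment with gaps counted, and Cyp3a11 and Cyp3a16 at 76.6%. The HNF4A sequence stood 109, 99 and 95 bases before the start in Cyp3a11, Cyp3a16 and Cyp3a41a. TATAAA stood 234, 126 and 122 bases before it, as a match of letters that was not shown to be a working TATA box.

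**Figure D4:**
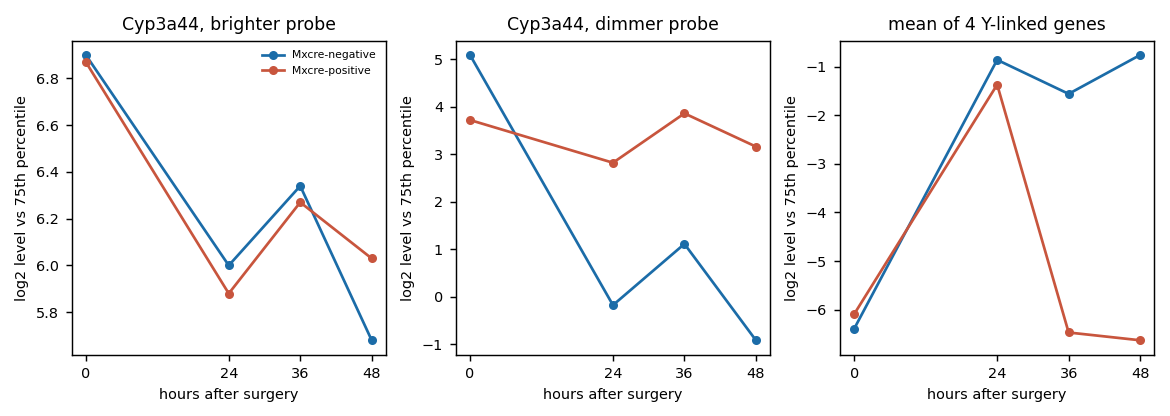
Log2 level relative to the array's 75th percentile against hours after hepatectomy for both probes of Cyp3a44 and for the mean of 4 Y-linked genes, 1 array per point, blue for Mxcre-negative and red for Mxcre-positive liver, with a separate vertical scale in each panel. On the dimmer probe the Mxcre-negative arrays are at -0.18, 1.11 and -0.92 after surgery, while the Mxcre-positive arrays stay at 2.82 or above.

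Of 46 members, 38 had a promoter in the RefSeq table. The sequence CAAAGTCCA lay in 5 of them (13.2%: Cyp2c40, Cyp2c70, Cyp3a11, Cyp3a16, Cyp3a41a), beside 0.381% of 27025 promoters of the same length. TATAAA lay in 52.6% beside 13.0%, AGGTCA in 28.9% beside 13.8%, TTGCNNAA in 23.7% beside 9.55%, AGTTCA in 7.89% beside 11.9% and GCGTG in 15.8% beside 28.2%. Tandem copies share sequence, so member promoters are not independent, and a match is no evidence of binding.

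Among the other Cyp2c genes, Cyp2c70 was the one called at all 3 times. Cyp2c70, which converts chenodeoxycholic acid to muricholic acids, read 7.41, 6.55, 6.36 and 6.74 in Mxcre-negative and 7.64, 6.37, 5.97 and 6.31 in Mxcre-positive liver, lowest at 36 h in both, with falls of 1.06 ± 0.20, 1.36 ± 0.20 and 1.00 ± 0.20 (limma adjusted p = 0.0417, 0.0249 and 0.0348). Cyp2c38, an arachidonic acid oxidase, read 3.75, 1.92, 2.45 and 0.51 in Mxcre-negative and 3.45, 2.62, 2.94 and 2.69 in Mxcre-positive liver, and was not called. After surgery every Mxcre-positive array was above its Mxcre-negative partner. Cyp2c23, an epoxygenase also called Cyp2c44, read 5.83, 4.86, 5.13 and 5.44 in Mxcre-negative and 5.93, 4.63, 5.08 and 4.35 in Mxcre-positive liver, and was not called. Cyp2c55 and Cyp2c66 were dim: the first read -3.17, -2.73, -2.70 and -3.02 in Mxcre-negative and -3.06, -3.27, -4.02 and -3.40 in Mxcre-positive liver. Cyp2c66 read -2.6, -2.77, -3.72 and -4.42 in Mxcre-negative and -2.03, -1.76, -5.18 and -2.33 in Mxcre-positive liver, with Mxcre-negative at 48 h and Mxcre-positive at 36 h not well above background.

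The Cyp2d genes, debrisoquine and steroid hydroxylases in this species, all had negative changes at each time. At 24, 36 and 48 h, 2, 3 and 4 of 7 were called lower, beside 5.31%, 8.74% and 9.64% of all genes. The pseudogene Cyp2d13 moved most, at 3.83, 2.18, 2.65 and 2.29 in Mxcre-negative and 4.78, 2.20, 2.59 and 1.73 in Mxcre-positive liver (-2.30 ± 0.36 at 48 h, limma adjusted p = 0.0221). Cyp2d9, the male-biased steroid 16-alpha-hydroxylase, read 7.97, 7.88, 7.79 and 7.87 in Mxcre-negative and 8.15, 7.59, 7.33 and 7.22 in Mxcre-positive liver, and was not called. Its Mxcre-negative arrays kept within 0.18 of 0 h, while the Mxcre-positive arrays were lower by 0.56, 0.81 and 0.93. The other 5 Cyp2d genes had changes of -0.97 to -0.19. Cyp2a22 was called at no time and read 4.37, 3.77, 4.22 and 2.79 in Mxcre-negative and 4.08, 3.59, 4.27 and 3.49 in Mxcre-positive liver. Cyp2a12, a bile acid hydroxylase named after its values were seen, kept between 5.93 and 6.22 on all arrays.

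The fixed list of lipid P450 genes and the vitamin D 25-hydroxylase had no calls. Of the 5 genes of that list, which leaves out arachidonic acid oxidases such as Cyp2c37 above, 0 were called by limma, and 2, 0 and 2 had an unadjusted p under 0.05 at 24, 36 and 48 h, both times Cyp2c23 and Cyp2j5. Cyp2j5, an epoxygenase of liver and kidney, read 5.45, 4.54, 5.10 and 5.12 in Mxcre-negative and 5.45, 4.67, 4.94 and 4.41 in Mxcre-positive liver. Cyp2j6 read 0.96, 0.78, 0.87 and 0.82 in Mxcre-negative and 1.15, 0.51, 0.62 and 0.40 in Mxcre-positive liver. Cyp2j9 read 0.60, 1.53, 0.85 and 0.34 in Mxcre-negative and 0.92, 0.63, 0.97 and 1.19 in Mxcre-positive liver, in no shared order. Cyp2u1, a long-chain fatty acid hydroxylase, read -1.74, -0.98, -0.78 and -0.55 in Mxcre-negative and -1.59, -1.06, -1.36 and -1.63 in Mxcre-positive liver. Its 48 h change of 0.57 ± 0.32 (limma adjusted p = 0.26) became -0.07 with normexp background. Cyp2r1, the vitamin D 25-hydroxylase, read 0.74, 0.13, 0.91 and 0.94 in Mxcre-negative and 0.55, 0.23, 0.93 and 1.10 in Mxcre-positive liver, below 0 h at 24 h and above it later in both, with no call.

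Cyp2j13 read 1.62, 0.83, 1.21 and 1.07 in Mxcre-negative and 1.55, 0.78, 0.71 and 0.50 in Mxcre-positive liver, and fell by 0.80 ± 0.19 at 48 h (limma adjusted p = 0.0484). Cyp2j11, dim throughout, read -2.66, -3.28, -3.92 and -2.6 in Mxcre-negative and -3.27, -3.81, -4.36 and -4.0 in Mxcre-positive liver, and fell by 1.18 ± 0.27 at 36 h (limma adjusted p = 0.0478). Cyp2s1, an epithelial P450, read -1.64, -1.29, -2.12 and -2.08 in Mxcre-negative and -1.63, -2.30, -2.09 and -2.27 in Mxcre-positive liver. It was called at no time.

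No P450 gene passed the test for a genotype difference averaged over the 4 times. The limma fit called 0 of 46 members, as it called 0.0% of all genes. An unadjusted p under 0.05 was reached by 2 members, beside 931 of all 14137 genes, and the smallest adjusted p among members was 0.751. Those 2 were Cyp1a1 at -0.50 ± 0.12 and Cyp2j11 at -0.74 ± 0.19 (Mxcre-positive minus Mxcre-negative), which with normexp background turned to 0.52 and 0.41. Cyp1a1, Cyp2j11 and Cyp2j13 were lower in Mxcre-positive liver at all 4 times and 0 members were higher at all 4, so 6.52% of members kept 1 sign, beside 16.1% of all genes. The members' median difference was -0.14, beside -0.02 for all genes. At 0 h the largest differences were lower Cyp2g1 (-1.61) and higher Cyp2b13 (1.09), the only members of 44 at or past 2-fold, beside 2.58% lower and 1.19% higher among all genes.

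At 24 h, 4 of 45 members were at least 2-fold lower in Mxcre-positive liver and 1 was higher, beside 1.19% and 0.793% of all genes. Cyp2b9, Cyp2b13 and Cyp2b10 were the lower ones with Cyp2s1, Cyp2b9 differing most at -2.78, and Cyp2c66 was the higher one. Both 24 h arrays had Y-linked signal. At 36 h the count was 1 lower (Cyp2c55, -1.32) and 0 higher, beside 2.3% and 2.24% of all genes. In the 48 h pair 7 of 43 members were lower and 5 higher, beside 3.16% and 2.5% of all genes. These counts depend on the background: with normexp 13 members were past 2-fold at 36 h and 11 at 48 h, and with normexp and quantile normalisation 0 and 5. Higher in Mxcre-positive liver were Cyp2c38 (2.17), Cyp2c37, Cyp2c39, Cyp2g1 and Cyp2c54, all of which were further below 0 h in the Mxcre-negative array. Lower were Cyp2j11 (-1.39), Cyp2b13, Cyp2b9, Cyp2c40, Cyp2c23, Cyp2u1 and Cyp2b10. At 36 and 48 h the Mxcre-positive arrays lacked Y-linked signal and the Mxcre-negative arrays had it, so genotype and that signal cannot be told apart there.

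**Figure D5:**
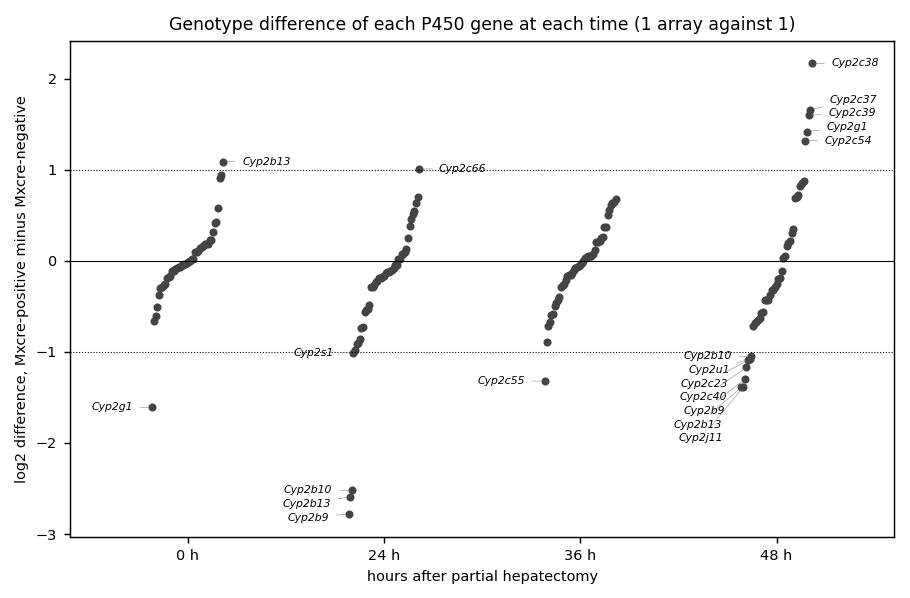
Log2 difference of each P450 gene, Mxcre-positive minus Mxcre-negative, at each time, for members above background on both arrays, 1 array against 1, sorted within a time, with dotted lines at 2-fold. Names mark members at or past 2-fold: 2, 5, 1 and 12 for 0, 24, 36 and 48 h in turn.

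Whether the genotype difference after surgery departed from that at 0 h was tested with an interaction term, and 0 members were called by limma, beside 0.17% of all genes. An unadjusted p under 0.05 was reached by 3 of 46 members, beside 945 of all 14137 genes, a like share. Cyp2g1 had the largest positive term (2.36 ± 0.54, adjusted p = 0.537), and Cyp2f2 (-1.09 ± 0.27, adjusted p = 0.579) and Cyp2d13 (-1.15 ± 0.32, adjusted p = 0.67) were negative. The 0 h side of this term rests on 1 pair of arrays, which also differed in neutrophil markers: all 10 were lower in the Mxcre-positive 0 h array, with a summed linear level of 7.99 beside 65.0. That level was 24.3 to 53.5 in the later Mxcre-negative arrays and 28.0 to 87.7 in the Mxcre-positive ones, all 10 genes passing the filter. Also lower in the Mxcre-positive 0 h array were 9 of 10 acute phase genes, 9 of 9 macrophage markers and 8 of 8 interferon-stimulated genes, among others. Hepatocyte markers were split, with 5 of 9 lower. The part of these sets in the P450 values was not tested.

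Of 9 xenobiotic receptors and partners measured, which include the sensors of foreign compounds, 2 were called lower at 24 h, 1 at 36 h and 1 at 48 h, and 0 higher, beside 5.31%, 8.74% and 9.64% of all genes called lower, with medians of -0.20, -0.35 and -0.40. Nr1i3, the constitutive androstane receptor, read 3.72, 3.34, 3.19 and 2.51 in Mxcre-negative and 3.58, 3.34, 3.1 and 3.18 in Mxcre-positive liver and did not pass (48 h change -0.80 ± 0.23, limma adjusted p = 0.0771). Nr1i2, the pregnane X receptor, kept between 2.70 and 3.31, and Ahr, the aryl hydrocarbon receptor, between 1.48 and 2.15. The called genes were Nr3c1, the glucocorticoid receptor, which fell by 0.77 ± 0.11, 0.56 ± 0.11 and 0.75 ± 0.11 at the 3 times (limma adjusted p = 0.0294, 0.0402 and 0.0206), and Ppara, the fatty acid sensor, which fell by 1.41 ± 0.24 at 24 h (limma adjusted p = 0.035). Of 9 targets of the constitutive androstane and pregnane X receptors outside the P450 families, 0, 0 and 2 were called lower. These were Ugt1a1, which conjugates bilirubin (-1.48 ± 0.32), and the carboxylesterase Ces2a (-1.30 ± 0.23), both at 48 h. Only 2 targets of the aryl hydrocarbon receptor outside these families were tested, with 0 called and medians of 0.51, 0.45 and 0.61.

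Some genes of the machinery that serves the enzymes were called lower. Of 12 genes of electron transfer and haem supply, these were 2, 1 and 3 at 24, 36 and 48 h, and 0 were called higher. Of all genes, 5.31%, 8.74% and 9.64% were called lower at these times, and the 36 h count is near that share. Por, the reductase that feeds all microsomal P450 enzymes, read 7.53, 7.12, 7.26 and 6.47 in Mxcre-negative and 7.82, 6.78, 7.13 and 6.72 in Mxcre-positive liver, and fell by 1.08 ± 0.20 at 48 h (limma adjusted p = 0.0304). Alas1, the rate-limiting enzyme of haem synthesis, read 7.77, 6.76, 7.72 and 6.63 in Mxcre-negative and 7.97, 6.56, 7.20 and 6.30 in Mxcre-positive liver. It fell by 1.21 ± 0.20 at 24 h and 1.40 ± 0.20 at 48 h (limma adjusted p = 0.0345 and 0.0189) and had a change of -0.40 ± 0.20 at 36 h. Among 10 regulators of sex-biased expression, 3, 3 and 4 were called lower and 0 higher, beside the same shares of all genes. Ghr, the growth hormone receptor, fell by 1.50 ± 0.24, 1.23 ± 0.24 and 1.57 ± 0.24, and Stat5b, its signal transducer, by 0.69 ± 0.13, 0.98 ± 0.13 and 0.81 ± 0.13. Hepatocyte transcription factors had 1 of 9 called lower at each time, beside the same shares, with medians of -0.11, -0.22 and -0.26.

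Other cell and state markers moved over the same times, and their part in the P450 values was not tested. Acute phase genes had medians of 1.48, 1.14 and 0.98 at 24, 36 and 48 h, with 2, 1 and 0 of 10 called higher and 1, 0 and 1 lower. Their summed linear level was 1010 to 2270 at 0 h and 2850 to 4820 later. Cholangiocyte markers had 3 of 5 called higher at each time (summed level 3.41 to 5.16 at 0 h, 11.9 to 40.5 later, with Cftr not above background). Of 10 T and NK cell markers 3, 6 and 6 were called lower (2.27 to 2.89 at 0 h, 1.25 to 1.75 later). Cd3g and Gzma, called lower at each time, were above background on 2 arrays each and highest at 0 h. They passed the filter only through their 0 h arrays, so the filter favoured these calls. S phase genes had 0, 8 and 8 of 8 called higher.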

How the data were processed

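Per the file headers, each deposited scanner file holds 1 array's spot intensity, read by Feature Extraction 10.7.3.1 (10.7 in the submitters' processing notes), and its processed signal is a background-subtracted intensity with no scaling between arrays. The deposited matrix holds the authors' log2 values with unstated centring. Each column had a median of 5.51 and a correlation of at least 0.999 with its own array and at most 0.984 with others, and it served as an alternative only. The aligner of probes to genes is not given in the sources used here.

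For each array, the 75th percentile of log2 processed signal was subtracted, and control and outlier spots were left out. Of 41174 probes 41056 were kept, and 26831 were named by matching their accession to RefSeq (GRCm38.p6). The brightest probe stood for each of 18312 genes, and 14137 genes well above background on at least 2 arrays were tested with limma 3.58.1 in R 4.3.3. An additive model of time and genotype left 3 residual degrees of freedom and the interaction model 2. Benjamini-Hochberg adjustment ran over all genes tested. Single pairs of arrays were compared at 2-fold among genes above background on both. Where a side was below background on all its arrays, the fold is a lower bound against the lowest signal well above background. The tests were checked on simulated data.

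The members and all gene lists were chosen with earlier results of these data known. Named genes were the members of fixed P450 lists, the 3 most changed per direction in each comparison and at each time, and 1 of any subfamily left over; 38 of 46 are named so, and others were named after their values were seen. Alternatives were normexp background (on median spot signals, since the files hold no mean signal), quantile normalisation, the deposited matrix, other filters, probes and variance priors, single slides, pairs left out, and a Y-linked covariate. Normexp with quantile normalisation was added after seeing the data. The number of arrays, 1 per group, limits the precision, and a time named otherwise in a protocol note of the labels was not used. With 1 array per group, p-values include no spread between animals.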

Additional observations from a re-analysis of the deposited data

Results flagged for a closer look

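Cyp2c55, an inducible arachidonic acid P450 of the Cyp2c cluster, lay on opposite sides of its 0 h level in the 2 genotypes after hepatectomy. Its 24, 36 and 48 h arrays differed from 0 h by 0.44, 0.46 and 0.14 in Mxcre-negative liver. In Mxcre-positive liver they differed from 0 h by -0.21, -0.96 and -0.34. The difference between the changes was -0.85 (log2), and the interaction term of Cyp2c55 did not pass (limma adjusted p = 0.876). Each change is 1 array against 1 of a dim gene, which read -4.02 to -2.70. The 36 and 48 h pairs of genotypes also differed in Y-linked signal.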

How the results depend on the processing

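With normexp background the members called at 24, 36 and 48 h went from 10, 12 and 19 to 0, 0 and 1, and all genes called from 1385, 2358 and 2514 to 25, 23 and 79. With normexp and quantile normalisation they were 16, 10 and 17 members, and 2186 genes at 24 h. Without a filter on dim genes 2, 1 and 13 members and 580, 990 and 1575 genes were called, and with a Y-linked covariate 0, 3 and 8 members and 1, 1059 and 1202 genes. At 24 h, the filter on all arrays gave 17 members, an intensity trend 19 (2146 genes), and the slide of 0 and 24 h alone 0 (0 genes). The 48 against 36 h test called 15 genes in the main fit and 0 to 34 otherwise, and the interaction 24 and 0 to 27. Values that turned with normexp background were the genotype differences of Cyp1a1 (0.52) and Cyp2j11 (0.41), Cyp2w1 at 24 h (-0.10), Cyp1b1 at 36 h (-0.58) and 48 h (-0.77), Cyp2b10 at 36 h (-0.25), Cyp2u1 at 48 h (-0.07) and the interaction of Cyp3a16 (-0.18); the causes were not tested. Members past 2-fold between genotypes at 0 h went from 2 to 1 with normexp, 1 with normexp and quantile normalisation and 0 with the mean of all probes; at 36 h from 1 to 13, 0 and 3. With normexp and quantile normalisation they were 3 at 24 h and 5 at 48 h, from 5 and 12. In Mxcre-negative liver at 36 h, 14 members past 2-fold became 9 with normexp and 8 with quantile normalisation added. For single genes, 506 alternatives kept the direction and side of the threshold, 136 lost the call, 11 gained it and 8 reversed. No paired analysis by replicate number was possible because the labels give none; the additive model matched the genotypes by time, and the slide as a random block was not run because time already encodes the slide. Signal near background limits Cyp1a1, Cyp1b1, Cyp2b10, Cyp2c66 and Cyp2w1. It also limits Cyp2c55 and Cyp2j11, which were above background on all 8 arrays but dim.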
